A study of Homo sapiens with 31 samples.

Results

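The genes described here are 9 secreted signals of epithelial cells: the chemokines CXCL1, CXCL2, CXCL3, CXCL8 and CCL20, the interleukins IL1A and IL1B, and the cytokines CSF3 and LIF. They were taken by gene name, from a set drawn up with earlier results of these data known, and all 9 were found among the 56269 gene names of the count tables and passed the filter on low counts. Poly(A) RNA was sequenced from MCF10A, a single non-transformed line of human breast epithelium, during its return to the cell cycle from quiescence. The starved cells, taken at 0 h, had been kept for 2 to 3 days without horse serum, epidermal growth factor or insulin. Release was into full growth medium with either DMSO, the vehicle, for 3, 6, 9, 12, 15 or 24 h, or palbociclib at 1 µM, an inhibitor of the kinases CDK4 and CDK6, for 9, 12, 15 or 24 h. Hydrocortisone, a glucocorticoid, and cholera toxin, which raises cyclic AMP, were in the starvation medium and the full medium alike, so every group received both, and the starvation medium also held bovine serum albumin. Each of the 11 groups had 3 libraries except the 2 groups at 24 h, which had 2 (replicates 1 and 3), 31 in all. Whether the replicates came from separate cultures is not stated, so a p-value reflects only how much these libraries vary, and that variation may be technical.

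Epithelial cells release these proteins to recruit and instruct leukocytes. CXCL1, CXCL2, CXCL3 and CXCL8 carry the ELR motif and attract neutrophils through the receptor CXCR2 and in part CXCR1. CCL20 attracts dendritic cells and lymphocytes through CCR6, CSF3 drives neutrophil production, and LIF signals through LIFR and IL6ST. IL1A and IL1B both act through IL1R1 and IL1RAP, and that receptor signals through MYD88, IRAK kinases and NF-kappaB to many genes of the same group. The mRNAs of such cytokines are typically short-lived, since AU-rich stretches in their 3′ untranslated regions (3′ UTRs) are bound by decay proteins such as ZFP36.

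Library totals ran from 10342358 to 20878364 counts, and a member had between 5 and 1948 counts in a library. All 10 basal epithelial markers had counts in every group, with a summed level of at least 12900 CPM (counts scaled to library size with TMM factors) in every library. A list of 12 leukocyte markers summed to 18.4 to 58.2 CPM, nearly all from CD14 and CSF1R, and PTPRC, which marks all leukocytes, had 10 counts in total with none in 24 of 31 libraries. A list of 11 fibroblast and endothelial markers was highest at 0 h, at 115 to 127 CPM in sum, and lay between 13.4 and 56.5 CPM after release, mostly from COL1A1 and KDR. The part of these markers in the results was not tested. On the main axis of variation within groups, which held 27.5% of that variance, 5 libraries (replicate 3 of DMSO at 24 h and of each palbociclib group) lay on the same side as replicate 2 of the 0 h and DMSO 3 to 15 h groups and not with the other libraries numbered 3. Member calls that use them are also given without them. Each 24 h group then has 1 library, which is assumed to vary like the libraries of the other groups. In bulk RNA, fewer cells of a type and less RNA per cell cannot be told apart.

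The 4 ELR chemokine genes lie in 1 cluster on chromosome 4 (GRCh38): CXCL8 at chr4:73740506-73743716, CXCL1 at chr4:73869393-73871242, CXCL3 at chr4:74036589-74038807 and CXCL2 at chr4:74097035-74099293, the first pair on the plus strand and the second on the minus strand. CXCL1, CXCL2 and CXCL3 are close paralogs. Reads that matched more than 1 place were not counted, so their counts may be too low and are uncertain in level. Their promoters are shown because these neighbours took different courses after release. Each line gives the 150 bases before the RefSeq start site (GRCh38.p14), read 5′ to 3′ on the gene's strand, and capitals mark matches to GGAATTTCC (a kappaB-like motif, to which NF-kappaB binds) or TGANTCA (the AP-1 motif).
CXCL1 (chr4:73869243-73869392, plus strand): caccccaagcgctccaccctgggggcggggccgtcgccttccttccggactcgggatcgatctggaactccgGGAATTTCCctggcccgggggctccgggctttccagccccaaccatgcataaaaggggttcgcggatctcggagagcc
CXCL2 (chr4:74099196-74099345, minus strand): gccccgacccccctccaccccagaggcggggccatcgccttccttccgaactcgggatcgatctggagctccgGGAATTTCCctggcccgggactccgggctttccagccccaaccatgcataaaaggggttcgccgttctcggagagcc
CXCL3 (chr4:74038690-74038839, minus strand): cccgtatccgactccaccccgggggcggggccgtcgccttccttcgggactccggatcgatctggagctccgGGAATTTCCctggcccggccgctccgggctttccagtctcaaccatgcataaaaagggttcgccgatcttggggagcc
CXCL8 (chr4:73740419-73740568, plus strand): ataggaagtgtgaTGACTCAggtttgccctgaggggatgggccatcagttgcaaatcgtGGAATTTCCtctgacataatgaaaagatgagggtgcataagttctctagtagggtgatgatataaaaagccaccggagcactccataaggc

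All 4 promoters held GGAATTTCC once, beginning 78 bases before the start in CXCL1 and CXCL3, 77 in CXCL2 and 91 in CXCL8. Searched on both strands over the 250 bases before the start, that motif occurred in 0.413% of 35116 RefSeq promoters and TGANTCA in 6.57%. GGAATTTCC is the form of a kappaB site that these 4 genes share, and looser forms were not searched. CXCL1, CXCL2 and CXCL3 are close paralogs, so their matches are not independent, and the share is a description and not a test. The longest run of letters shared within the 150 bases shown was 42 bases for CXCL1 and CXCL2, 37 for CXCL2 and CXCL3 and 25 for CXCL1 and CXCL3. Between CXCL8 and each of the other three it was 9 bases, the motif itself. The promoters of CCL20 and IL1B held neither set of letters, which does not show that they lack other forms of these motifs. IL1A had TGANTCA before both of its listed start sites, at 12 bases before one and at 105 and 55 before the other. These starts lie close together, and the matches at 12 and 105 bases are the same site. CSF3 and LIF were not matched in the promoter table. A match describes these letters and is not a measured binding site.

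The 3′ UTRs of all 9 genes held ATTTA, the core of the AU-rich element, from 3 times in CCL20 to 10 times in CXCL2 in the longest GENCODE 29 coding transcript, where the median over 12523 tested genes was 2. Per kilobase the frequency ran from 2.18 in LIF and 4.34 in IL1A to 9.84 in IL1B, 10.4 in CXCL3 and 13.9 in CXCL2, and the median gene had 1.72. The 9-base form TTATTTATT was present in 6 of the 9 (not in CCL20, IL1A or CSF3) and in 9.59% of tested genes. The densest 30 bases are shown for the 4 genes that fell between 3 and 6 h and, after them, for the 3 that rose, with ATTTA in capitals (GRCh38, strand of the gene).
CXCL2 (chr4:74097590-74097619): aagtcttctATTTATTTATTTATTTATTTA
CXCL3 (chr4:74037090-74037119): ttacgagggttctacttATTTAtgtATTTA
CCL20 (chr2:227817270-227817299): ttaaagttaaactgtattttatgttATTTA
LIF (chr22:30240522-30240551): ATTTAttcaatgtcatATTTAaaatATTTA
CXCL1 (chr4:73870665-73870694): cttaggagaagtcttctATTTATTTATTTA
CXCL8 (chr4:73743108-73743137): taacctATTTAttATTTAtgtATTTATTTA
CSF3 (chr17:40016975-40017004): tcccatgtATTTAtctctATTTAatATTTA
Both sets held the pentamer, overlapping repeats included, with 1 copy in the CCL20 window and 2 to 5 in the others.

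The first comparison asked what release into full medium did to these transcripts. All 9 were higher at 3 h than in the starved cells, all 9 again after 6, 9 and 12 h, 8 after 15 h and 6 after 24 h, and none was lower at any time. Without the 5 libraries that stood apart 4 were higher after 24 h, with log2 fold changes of 1.77 (CXCL1), 3.84 (CCL20), 4.47 (CXCL8) and 6.86 (CSF3). Their courses differed: CXCL2, CXCL3, CCL20 and LIF stood highest at 3 h and fell by 6 h, whereas CXCL1, CXCL8 and CSF3 rose further after 3 h. IL1A and IL1B had the smallest log2 fold changes at 3 h. At 3 h, 62.2% of all tested genes were called and 27.8% were called higher, so a call alone is common in this contrast. The median log2 fold change of the members was 3.09, against -0.10 over all 15787 genes tested. For the later times against 0 h the shares called in either direction were 73.5% (6 h), 75.1% (9 h), 75.7% (12 h), 76.7% (15 h) and 75.6% (24 h). The shares called higher, the direction of the member calls, were 34.1% (6 h), 35.3% (9 h), 36.1% (12 h), 37.4% (15 h) and 36.7% (24 h). These 6 comparisons share the same 3 libraries at 0 h.

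**Figure D1:**
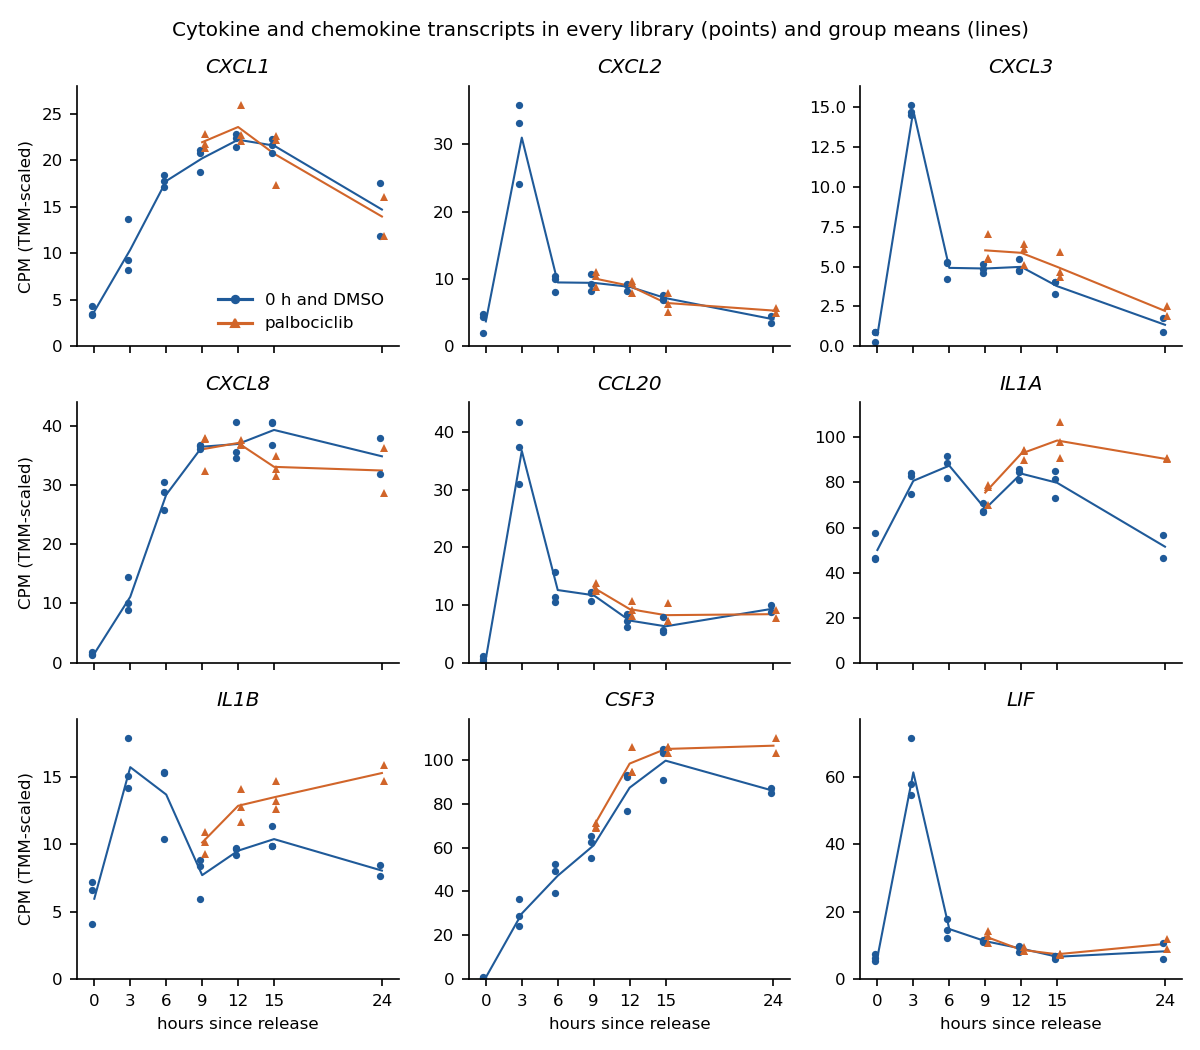
Level of each of the 9 transcripts (y axis, TMM-scaled CPM) against hours since release (x axis), with 1 point per library, circles for 0 h and DMSO, triangles for palbociclib and lines through group means. CXCL2, CXCL3, CCL20 and LIF peak at 3 h, CXCL1, CXCL8 and CSF3 build up to 12 or 15 h, and IL1A and IL1B are higher with palbociclib at 24 h than with DMSO.

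Among the ELR chemokines, CXCL2 was at 4.85, 1.96 and 4.30 CPM in the starved libraries, at 33.1, 35.8 and 24.1 CPM at 3 h and at 10.4, 9.97 and 8.11 CPM at 6 h. Every 3 h library stood above every other library of the series, and by 6 h the level was still above that of the starved cells. At 3 h against 0 h the log2 fold change was 3.09 (SE 0.18) by edgeR's quasi-likelihood test (adjusted p = 1.3e-15), and the transcript fell by 1.71 (SE 0.16) from 3 to 6 h. Between 6 and 12 h it lay near 9 CPM (8.84 ± 0.50 at 12 h, SD, n = 3). At 24 h it was 3.54 and 4.50 CPM with DMSO, which overlapped the starved libraries (log2 fold change 0.15, SE 0.25, adjusted p = 0.60).

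CXCL3 took the same course at lower levels. It had 14, 5 and 15 counts at 0 h (0.917, 0.289 and 0.896 CPM), 14.5, 15.1 and 14.7 CPM at 3 h, and 5.30, 5.20 and 4.25 CPM at 6 h. The 3 h libraries were nearly equal and far above the rest, and replicate 2 of the starved cells was the lowest library, as it was for CXCL2 and CCL20. The log2 fold change at 3 h was 4.40 (SE 0.21, adjusted p = 9.3e-18), and CXCL3 fell by 1.58 (SE 0.16) from 3 to 6 h and by 1.43 (SE 0.25) from 15 to 24 h. Its 24 h libraries, at 0.903 and 1.80 CPM, overlapped those at 0 h. The call at 24 h against 0 h (log2 fold change 1.01, SE 0.33, adjusted p = 0.0075) was lost without DMSO 24 h replicate 3, 1 of the 5 libraries (0.39, adjusted p = 0.48), without 0 h replicate 2 (0.62, adjusted p = 0.075), without the 5 libraries (0.47, adjusted p = 0.38) and when fitted on its own libraries (1.01, adjusted p = 0.066).

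CXCL8, which encodes interleukin-8, rose more slowly and kept its level. It was at 1.77, 1.27 and 1.55 CPM at 0 h, 10.0, 14.4 and 8.97 CPM at 3 h, 30.5, 28.9 and 25.7 CPM at 6 h and 40.7, 36.7 and 40.5 CPM at 15 h. The 3, 6 and 9 h libraries each lay wholly above those of the time before, and from 9 h on consecutive times overlapped. Log2 fold changes against 0 h were 2.90 (SE 0.19) at 3 h, 4.22 (SE 0.16) at 6 h and 4.68 (SE 0.16) at 15 h, all called. At 24 h the libraries, at 31.8 and 37.9 CPM, still averaged 22.8 times the starved level.

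CXCL1 had the smallest log2 fold change of the ELR group at 3 h. Its libraries were at 4.32, 3.41 and 3.52 CPM at 0 h, 9.26, 13.7 and 8.20 CPM at 3 h, and 17.1, 18.4 and 17.8 CPM at 6 h. These 3 groups did not overlap, and replicate 2 was the highest library at 3 h for 7 of the 9 genes (not for CCL20 or LIF). It rose by 1.51 (SE 0.18) on the log2 scale at 3 h and by 2.57 (SE 0.16) at 12 h, where the mean was 22.2 ± 0.73 CPM (SD, n = 3). Between 15 and 24 h CXCL1 fell by 0.53 (SE 0.15, adjusted p = 0.0057), and without DMSO 24 h replicate 1 that call was lost (-0.30, adjusted p = 0.22), as was that of CXCL2 (main value -0.81, SE 0.23; -0.67, adjusted p = 0.10 without it). Without the 5 libraries the falls from 15 to 24 h were -0.86 for CXCL1 (adjusted p = 0.0014), -1.02 for CXCL2 (adjusted p = 0.024) and -2.07 for CXCL3 (adjusted p = 7.9e-05).

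**Figure D2:**
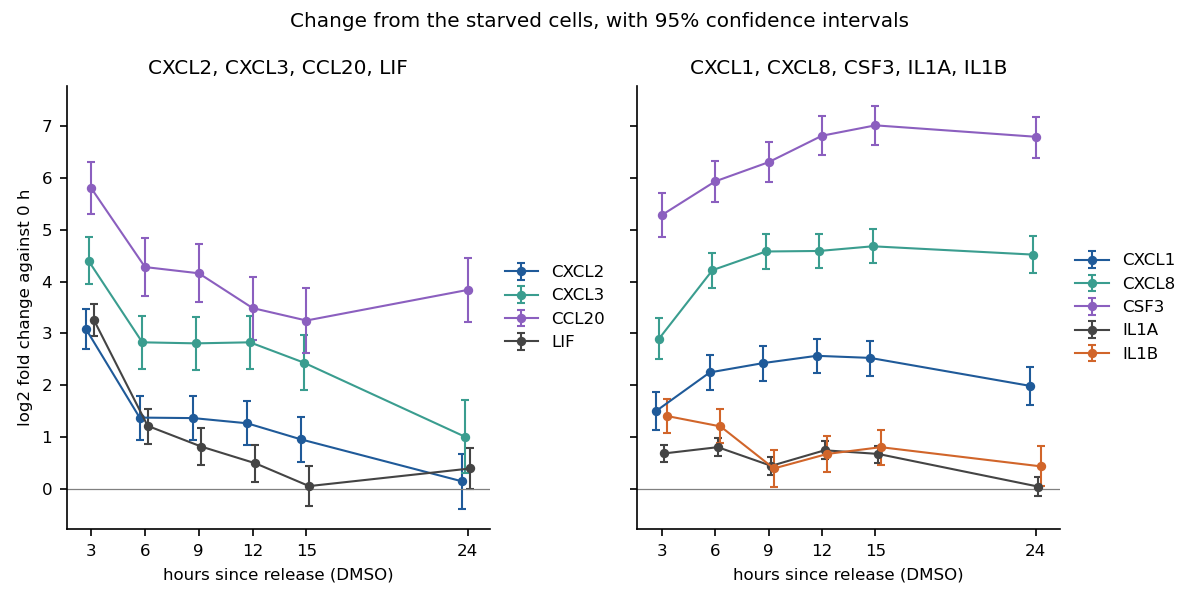
Log2 fold change against 0 h (y axis) at each DMSO time (x axis, hours) with 95% confidence intervals from the quasi-likelihood fit, for the genes that fell from 3 to 6 h (left) and the other five (right). At 24 h the intervals of CXCL2 and IL1A span 0 and that of LIF begins at 0.00, while CSF3 stays at 6.79 and CXCL8 at 4.52.

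Because the 4 ELR chemokines share the receptor CXCR2, their make-up was also compared per length, in TPM. TPM values are counts divided by exon length and scaled to the same total in each library. Summed over the 4 genes, the level rose from 28.6 TPM at 0 h to 157 TPM at 3 h and stayed at 145 to 167 TPM from 6 to 15 h, with 118 TPM at 24 h in DMSO. CXCL2 made up 51.3% of that sum at 3 h (libraries 48.7 to 55.0%) and CXCL8 12.1% (at most 13.3%). By 24 h the order had turned, with CXCL8 at 51.5% (49.1 to 53.9%) and CXCL2 at 8.96% (8.83 to 9.09%). CXCL1 took 46.9% at 0 h, 19.7% at 3 h and 37.6 to 41.3% at the later DMSO times, and CXCL3 never exceeded 20.1% in any library. The sum at 3 h thus nearly equalled that at 9 h (165 TPM), but with other genes leading. These shares carry the uncertainty of the 3 paralogs noted above.

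**Figure D3:**
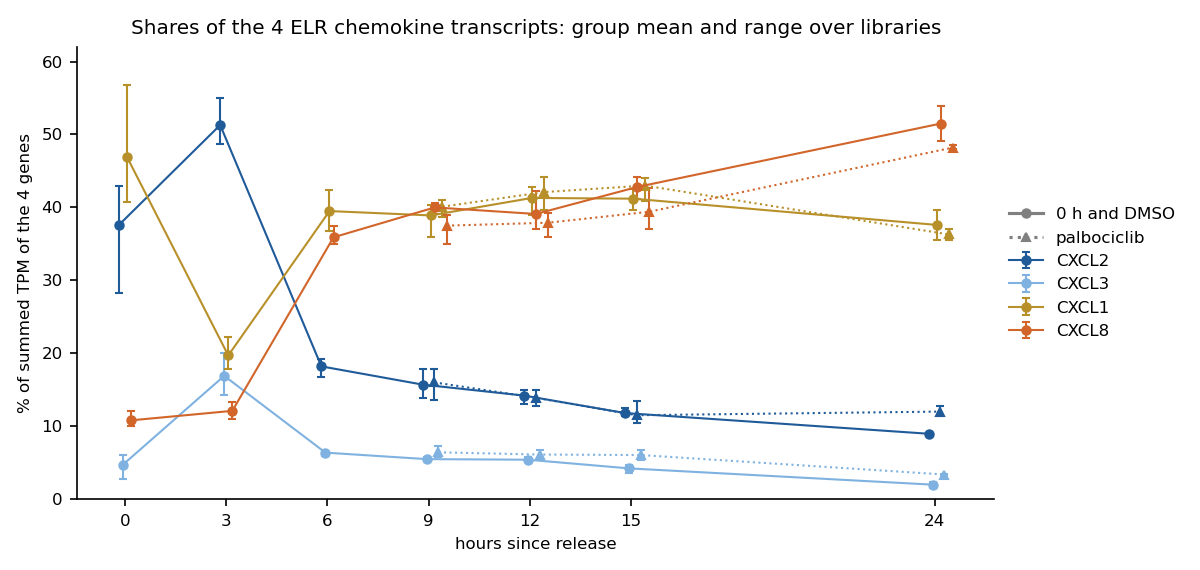
Share of each ELR chemokine in the summed TPM of the 4 genes (y axis, %) against hours since release (x axis), as the group mean with bars from the lowest to the highest library, circles for 0 h and DMSO and triangles for palbociclib. CXCL2 leads at 3 h with 51.3% and CXCL8 at 24 h with 51.5% in DMSO.

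CCL20 (chr2:227813842-227817564, plus strand) had the largest log2 fold change of the 9 at 3 h. It was at 1.11, 0.289 and 0.597 CPM at 0 h (17, 5 and 10 counts), at 41.8, 37.4 and 31.0 CPM at 3 h and at 11.4, 15.8 and 10.6 CPM at 6 h. All released libraries stood above all starved ones, and the 3 h libraries above all others. At 3 h the log2 fold change was 5.80 (SE 0.24, adjusted p = 1.4e-19), and CCL20 then fell by 1.52 (SE 0.15) from 3 to 6 h and by 0.68 (SE 0.18) from 9 to 12 h. The second fall lost its call without DMSO 12 h replicate 1 (-0.57, adjusted p = 0.054). From 15 h (5.34, 5.62 and 7.97 CPM) to 24 h (8.82 and 9.95 CPM) it rose by 0.59 (SE 0.20, adjusted p = 0.029). That rise was the least stable of these calls, lost without any 1 of 4 libraries (DMSO 15 h replicate 1 or 2, DMSO 24 h replicate 1 or 3) and without the 5 libraries (0.48, adjusted p = 0.26).

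The interleukin-1 genes are neighbours on chromosome 2, IL1A at chr2:112773915-112784590 and IL1B at chr2:112829751-112836903, both on the minus strand. IL1A encodes a cytokine that is active as made and is released by damaged cells, and IL1B a precursor that needs cleavage. IL1A was at 57.6, 46.0 and 46.5 CPM at 0 h, 83.0, 84.2 and 75.0 CPM at 3 h and 91.6, 88.8 and 82.0 CPM at 6 h. The starved libraries were the lower ones in each case, but the span was narrow. Log2 fold changes were 0.69 (SE 0.08) at 3 h and 0.81 (SE 0.08) at 6 h, and IL1A fell by 0.36 (SE 0.08) from 6 to 9 h, rose by 0.30 (SE 0.08) from 9 to 12 h and fell by 0.63 (SE 0.09) from 15 to 24 h (-0.79, adjusted p = 1.8e-05, without the 5 libraries). At 24 h in DMSO, 46.4 and 56.6 CPM overlapped the starved libraries (log2 fold change 0.05, SE 0.09, adjusted p = 0.63), though it passed without 0 h replicate 1 (0.23, adjusted p = 0.025).

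IL1B was at 7.20, 6.58 and 4.12 CPM at 0 h, 15.1, 17.9 and 14.2 CPM at 3 h, 15.3, 15.4 and 10.4 CPM at 6 h and 8.40, 8.83 and 5.92 CPM at 9 h. In the DMSO course it was highest at 3 and 6 h, and at 9 h it overlapped the starved libraries. It rose by 1.41 (SE 0.16, adjusted p = 2.5e-09) at 3 h on the log2 scale, and IL1B fell by 0.82 (SE 0.15) from 6 to 9 h. Its calls against 0 h were weak at 9 h (0.40, SE 0.17, adjusted p = 0.034; 0.18, adjusted p = 0.32 without 0 h replicate 3) and at 24 h (0.44, SE 0.18, adjusted p = 0.031; 0.23, adjusted p = 0.25 without the same library). The 24 h call was also lost without DMSO 24 h replicate 3 (0.36, adjusted p = 0.20) and without the 5 libraries (0.45, adjusted p = 0.13), and the 9 h call without DMSO 9 h replicate 2 (0.37, adjusted p = 0.081). Scaled by library totals, neither passed (0.32, adjusted p = 0.069, at 9 h and 0.32, adjusted p = 0.095, at 24 h).

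CSF3 (chr17:40015361-40017813, plus strand), the granulocyte colony-stimulating factor gene, went, per length, from the second lowest mean of the 9 to the highest. It had 9, 19 and 10 counts at 0 h (0.589, 1.10 and 0.597 CPM) and was at 28.9, 36.4 and 24.4 CPM at 3 h, 49.4, 52.7 and 39.4 CPM at 6 h and 103, 105 and 91.0 CPM at 15 h. No 2 of these 4 groups overlapped. Log2 fold changes against 0 h were 5.28 (SE 0.21) at 3 h, 5.93 (SE 0.19) at 6 h, 6.30 (SE 0.19) at 9 h, 6.81 (SE 0.18) at 12 h and 7.01 (SE 0.18, adjusted p = 3.4e-25) at 15 h. Each step up to 12 h was called, by 0.65 (SE 0.11) from 3 to 6 h, 0.37 (SE 0.10) from 6 to 9 h and 0.51 (SE 0.10) from 9 to 12 h. The 6 to 9 h step lost its call without DMSO 6 h replicate 3 (0.26, adjusted p = 0.061). At 24 h CSF3 was at 84.7 and 87.1 CPM in DMSO.

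LIF (chr22:30240447-30246851, minus strand) gave the sharpest return. It was at 7.33, 6.41 and 5.43 CPM at 0 h, at 71.6, 54.7 and 57.9 CPM at 3 h, at 12.3, 14.5 and 17.8 CPM at 6 h and at 6.90, 6.89 and 6.11 CPM at 15 h. The 3 h libraries stood far above all others, and those at 15 h overlapped the starved ones. Against 0 h the log2 fold change was 3.26 (SE 0.15, adjusted p = 1.5e-18) at 3 h and 0.06 (SE 0.18, adjusted p = 0.77) at 15 h, and LIF fell by 2.05 (SE 0.13) from 3 to 6 h. The further fall of 0.40 (SE 0.15, adjusted p = 0.039) from 6 to 9 h lost its call without any 1 of 5 libraries (DMSO 6 h replicate 2 or 3, or any DMSO 9 h library; adjusted p = 0.06 to 0.23). The call at 12 h against 0 h (0.50, SE 0.17, adjusted p = 0.0097) was lost without 0 h replicate 3 (0.39, adjusted p = 0.064). The 24 h libraries stood apart, at 5.90 and 10.6 CPM, and without the lower one (replicate 1) LIF at 24 h passed against 0 h (0.73, adjusted p = 0.0012) and against 15 h (0.67, adjusted p = 0.012). With both libraries the value at 24 h against 0 h was 0.40 (SE 0.19, adjusted p = 0.057), which also passed with RLE size factors, with no filter, with DESeq2 and without 0 h replicate 1 (adjusted p = 0.016 to 0.047). Of the exonic bases of LIF, 6.73% also lie in genes on the opposite strand, whose reads cannot be told apart here.

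Between consecutive DMSO times the calls thinned out. From 3 to 6 h, 7 of the 9 were called (3 higher, 4 lower), where 57.6% of all tested genes were. From 6 to 9 h it was 5 of 9 (CSF3 and CXCL8 higher, with CXCL8 by 0.36, SE 0.10; IL1A, IL1B and LIF lower) against 34.8%, and from 9 to 12 h 3 of 9 (CSF3 and IL1A higher, CCL20 lower) against 15.2%. From 12 to 15 h none was called by edgeR's quasi-likelihood test or by DESeq2, with 2 at an unadjusted p under 0.05 (CXCL3 and LIF), and 7.01% of all genes were called. From 15 to 24 h, 5 of 9 were called (CCL20 higher; CXCL1, CXCL2, CXCL3 and IL1A lower) against 29.6%.

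Levels of different genes were compared per length. At 0 h IL1A was the most abundant of the 9 at 106 ± 15 TPM (SD, n = 3), well above CXCL1, CXCL2 at 11.2 ± 4.8 TPM, IL1B at 8.60 ± 2.2 TPM and the rest. At 3 h IL1A (148 ± 5.0 TPM) was followed by CCL20 (107 ± 14 TPM), CXCL2 (80.4 ± 14 TPM) and LIF (60.5 ± 9.1 TPM). At 24 h in DMSO CSF3 led at 153 ± 2.4 TPM (n = 2), ahead of IL1A at 95.8 ± 10 TPM and CXCL8 at 60.5 ± 5.4 TPM. CSF3 was thus among the lowest transcripts before release and the highest at the end of the course. CXCL3 was the lowest of the 9 at 0 h and at 24 h, at 1.43 ± 0.76 and 2.39 ± 1.0 TPM, and its values at 0 h overlapped those of CSF3 and CCL20.

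**Figure D4:**
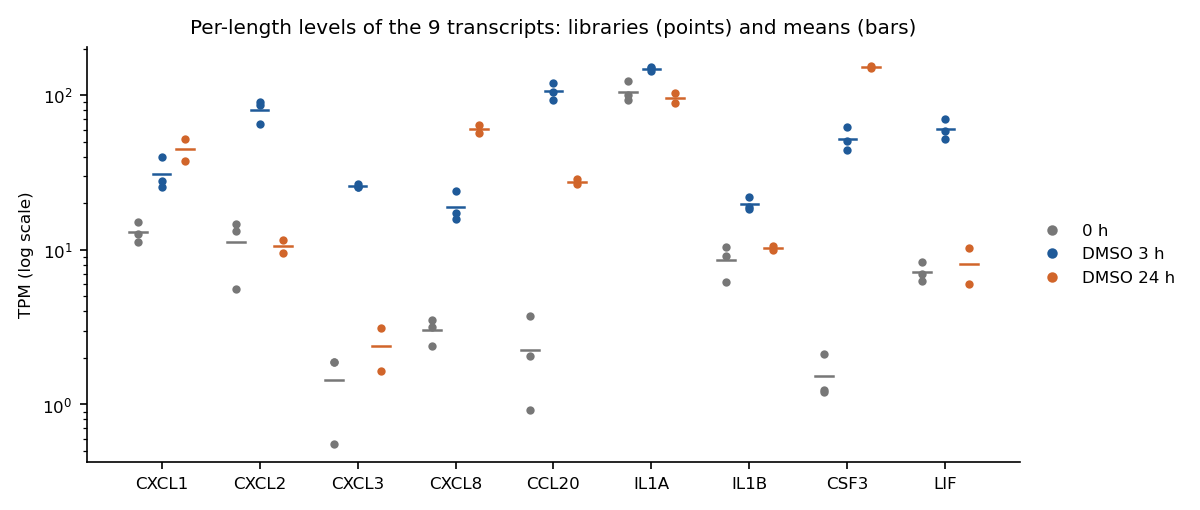
Per-length level of each transcript (y axis, TPM on a log scale) in the starved cells and at 3 and 24 h with DMSO, with 1 point per library and a bar at the group mean. IL1A leads at 0 h (106 TPM) and at 3 h (148 TPM), and CSF3 leads at 24 h (153 TPM).

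The second comparison asked what palbociclib changed at each shared time. Only the interleukin-1 genes passed: IL1A at 15 h and both IL1A and IL1B at 24 h, all higher with the drug. IL1A was at 90.8, 107 and 98.1 CPM with palbociclib at 15 h and at 73.3, 81.4 and 84.9 CPM with DMSO, and at 24 h it was at 90.7 and 90.3 CPM against 46.4 and 56.6 CPM. The groups did not overlap at either time, and IL1A stayed near its 15 h level with the drug while it fell in DMSO. Its log2 fold change was 0.31 (SE 0.08, adjusted p = 0.0066) at 15 h and 0.81 (SE 0.10, adjusted p = 1.2e-07) at 24 h. The 15 h call was lost without DMSO 15 h replicate 1 (0.26, adjusted p = 0.059) or palbociclib 15 h replicate 2 (0.26, adjusted p = 0.057) and held without the 5 libraries (0.31, adjusted p = 0.021). The 24 h call held in every alternative run, with 0.96 (adjusted p = 1.8e-05) without the 5 libraries.

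IL1B was at 14.7 and 15.9 CPM with palbociclib at 24 h and at 7.64 and 8.47 CPM with DMSO. Both drug libraries lay above every DMSO library from 9 h on and reached the range of the 3 h libraries. The difference on the log2 scale was 0.93 (SE 0.19, adjusted p = 0.00039). Without the 5 libraries it was 0.93 with an adjusted p that rounds to 0.05 and still passed, and without any 1 library it was 0.85 to 1.00. At the earlier times IL1B did not pass, with log2 values of 0.37 (SE 0.16, adjusted p = 0.44) at 9 h, 0.44 (SE 0.15, adjusted p = 0.090) at 12 h and 0.38 (SE 0.15, adjusted p = 0.11) at 15 h, though drug and DMSO libraries did not overlap at any of the 4 times. The 12 h value passed with no filter, with a replicate block and with only the libraries of that comparison fitted (adjusted p = 0.024, 0.029 and 0.011), and the 15 h value in the latter pair (adjusted p = 0.043 and 0.029).

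In the other 7 genes no difference passed at any time. At 15 h the largest log2 differences were 0.41 in CXCL3 (95% interval 0.03 to 0.79), 0.41 in CCL20 (0.02 to 0.81) and -0.24 in CXCL8 (-0.45 to -0.03). Their adjusted p-values were 0.17, 0.20 and 0.14, and of these genes only CCL20 had drug and DMSO libraries that overlapped. CSF3 came nearest at 24 h, at 110 and 103 CPM against 84.7 and 87.1 CPM, with a log2 fold change of 0.31 (SE 0.12, adjusted p = 0.070). It passed in 5 alternatives (library totals, no filter, the replicate block, the comparison's own libraries and DESeq2, adjusted p = 0.010 to 0.047), but not without the 5 libraries (0.36, adjusted p = 0.28). For CXCL8 at 24 h the difference was -0.10 on the log2 scale with a 95% interval of -0.36 to 0.17, for CXCL1 -0.07 (-0.43 to 0.28) and for CCL20 -0.15 (-0.62 to 0.31). For the remaining genes it was 0.40 (-0.17 to 0.97) in CXCL2, 0.69 (0.05 to 1.33) in CXCL3 and 0.33 (-0.09 to 0.76) in LIF. Without the 5 libraries CXCL3 (1.05, adjusted p = 0.21) and LIF (0.58, adjusted p = 0.26) did not pass. CXCL3 and LIF passed once DMSO 24 h replicate 3 was left out (1.30, adjusted p = 0.035, and 0.83, adjusted p = 0.016). These intervals do not show that the drug left a transcript unchanged.

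**Figure D5:**
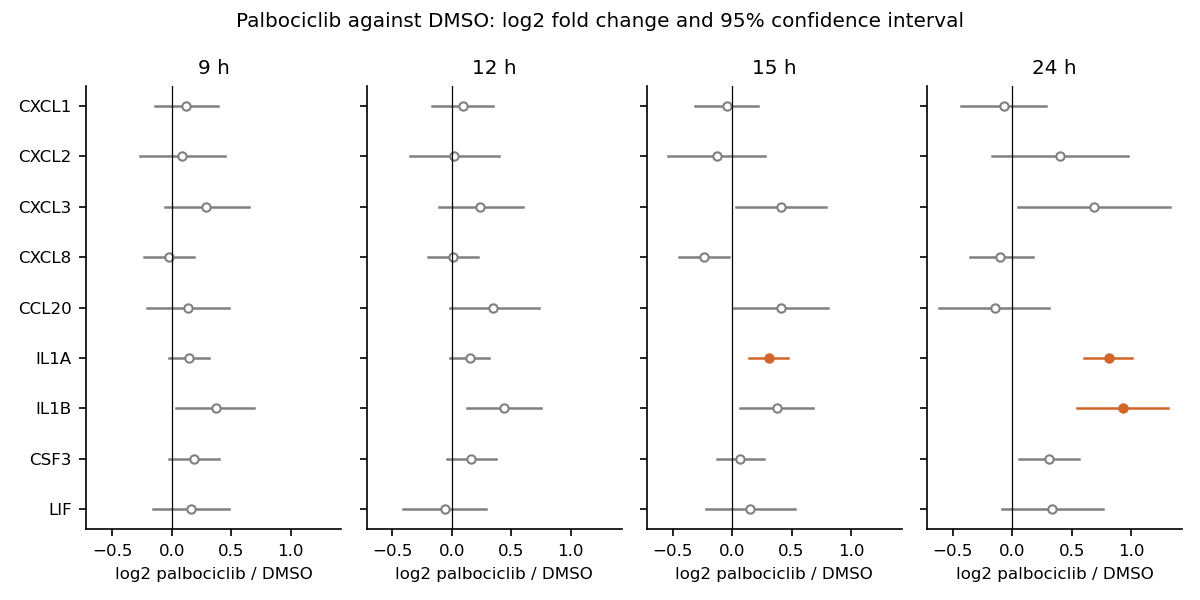
Log2 ratio of palbociclib to DMSO (x axis) for each of the 9 genes (y axis) at 9, 12, 15 and 24 h with 95% confidence intervals, filled orange where the call passed and open grey elsewhere. Orange marks fall on IL1A at 15 and 24 h (0.31 and 0.81) and on IL1B at 24 h (0.93).

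No member was called at 9 h, where 1.18% of all tested genes were, or at 12 h, where 5.63% were. At each of these times IL1B alone had an unadjusted p under 0.05, and DESeq2 called none. At 15 h 1 of 9 was called against 10.9% and at 24 h 2 of 9 against 18.0%. These shares of all genes count both directions. In the direction of the member calls, 2.15% of all genes were called higher at 15 h and 5.76% at 24 h. The difference between times was tested as an interaction. From 9 to 15 h no member's drug effect changed by edgeR's quasi-likelihood test or by DESeq2 (none at an unadjusted p under 0.05), with 4.05% of all genes called. From 15 to 24 h 2.98% of all genes were called, and 1.06% were called higher. The drug effect on IL1A grew by a log2 value of 0.50 (SE 0.12, adjusted p = 0.018) between these times. This call was lost without the 5 libraries (0.64, adjusted p = 0.055) and without any 1 of DMSO 24 h replicate 1 (0.34, adjusted p = 0.29), DMSO 15 h replicate 3 (0.45, adjusted p = 0.060), palbociclib 24 h replicate 1 (0.51, adjusted p = 0.078) or replicate 3 (0.50, adjusted p = 0.064). For IL1B the same change was 0.55 (SE 0.24, adjusted p = 0.28).

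Receptors and signal transducers for these cytokines were read from a list of 18 genes, 14 of them tested. Against 0 h, 5 were higher and 5 lower at 3 h, where 27.8% of all tested genes were called higher and 34.4% lower, and 3 were higher and 10 lower at 24 h, where 36.7% and 38.9% were, with a median log2 fold change of -0.49 at 24 h against -0.09 over all genes. The 2 chains of the interleukin-1 receptor moved apart: IL1RAP rose from 20.7 ± 4.0 to 77.4 ± 7.4 CPM at 3 h and 131 ± 8.2 CPM at 6 h, and IL1R1 fell from 130 ± 6.8 CPM to 68.5 ± 5.2 CPM at 6 h and 19.2 ± 0.87 CPM at 24 h (log2 fold change -2.76, SE 0.08, adjusted p = 1.1e-23). IL1RN, whose product blocks the receptor, rose by 2.14 (SE 0.12) at 3 h. LIFR fell to 17.8 CPM at 24 h from 87.1 CPM (-2.29, SE 0.08).

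The receptors of the chemokines were scarce. CXCR1 was at 2.14 ± 0.20 CPM at 0 h and 0.619 ± 0.17 CPM at 3 h. CXCR2 had 14 counts in all 31 libraries together, and CCR6, the CCL20 receptor, had none. Of the exonic bases of CCR6, 71.2% also lie in another gene on the same strand, so its count may be too low. Of all tested genes, 5.76% were called higher and 12.3% lower with palbociclib at 24 h. Between palbociclib and DMSO at 24 h, TOLLIP (0.26, SE 0.07) and MYD88 (0.24, SE 0.07) were the 2 genes of the list called, both higher, and neither passed without the 5 libraries (0.09, adjusted p = 0.71, and 0.13, adjusted p = 0.55).

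Genes for processing and release of interleukin-1 formed a list of 16, of which 12 were tested and GSDME was not found by that name. At 3 h 5 were higher and 2 lower, against 27.8% and 34.4% of all genes. NLRP3, an inflammasome sensor, rose from 0.327 ± 0.085 to 3.61 ± 0.45 CPM, and CAPN2, a calpain, by 0.62 (SE 0.06), while GSDMD, a pore protein, fell by 1.03 (SE 0.12) and NLRP1, another sensor, by 0.42 (SE 0.11). None of the 12 was called for palbociclib at 24 h, where 18.0% of all genes were called and the median was 0.12 against 0.01 over all genes.

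Of 37 other cytokine and chemokine genes, 17 had enough counts to test, and at 3 h 7 were higher and 5 lower (27.8% and 34.4% of all genes). CLCF1, a cytokine of the LIF family, rose from 1.46 ± 0.24 to 70.7 ± 4.5 CPM (log2 fold change 5.59, SE 0.12), and IL24 reached 28.9 ± 0.89 CPM (3.78, SE 0.15). Both were lower at 6 h, at 26.7 and 5.47 CPM, and from 3 to 6 h none of the 17 was called higher and 12 were called lower, where 27.8% of all genes were higher and 29.8% lower. TNFSF10, the TRAIL ligand, went the other way, from 30.1 ± 2.6 CPM at 0 h to 4.64 ± 1.7 CPM at 3 h and 0.471 ± 0.16 CPM at 6 h. Several classical inflammatory cytokines were near the floor: IL6 had 10 counts and TNF 22 counts over all 31 libraries, and CCL2 had 3. Of all tested genes, 5.76% were called higher with palbociclib at 24 h. With palbociclib at 24 h CLCF1 (29.6 ± 2.3 against 18.5 ± 0.14 CPM, log2 fold change 0.67, SE 0.11) and IL18 (161 ± 3.4 against 118 ± 1.0 CPM, 0.44, SE 0.07) were called, both higher, also without the 5 libraries (0.73, adjusted p = 0.0028, and 0.44, adjusted p = 0.0077).

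The 17 listed NF-kappaB subunits and regulators were all tested. At 3 h 6 were higher and 8 lower, and at 24 h 4 were higher and 13 lower. Of all genes 27.8% were higher and 34.4% lower at 3 h, and 36.7% and 38.9% at 24 h, where the median log2 fold change was -0.72 for the list and -0.09 for all genes. RELA, a main subunit, rose from 98.2 ± 3.3 to 171 ± 11 CPM at 3 h, and BCL3 from 29.5 ± 2.5 to 60.0 ± 0.60 CPM. NFKB1 rose by 0.52 (SE 0.05). The subunits did not move together: REL fell from 73.3 ± 16 to 11.5 ± 4.4 CPM at 3 h (-2.72, SE 0.17). Of the exonic bases of REL, 50.7% also lie in another gene on the same strand, so its counts are uncertain. RELB was lower than in the starved cells at 6 h (-1.59, SE 0.11). NFKBIA, the inhibitor, fell by 1.07 (SE 0.08) at 3 h and by 2.09 (SE 0.10) at 24 h, and BIRC3 by 1.77 (SE 0.10) and 2.96 (SE 0.12). With palbociclib at 24 h BIRC3 (-0.54, SE 0.14) and NFKB1 (-0.20, SE 0.07) were called lower and none higher, where 12.3% of all genes were lower and 5.76% higher. Without the 5 libraries BIRC3 no longer passed (-0.52, adjusted p = 0.13), and NFKB1 did (-0.33, adjusted p = 0.042).

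Among 11 regulators of AU-rich mRNA decay, 7 were higher and 3 lower at 3 h, against 27.8% and 34.4% of all genes. ZFP36L1, a decay factor, rose from 199 ± 43 to 914 ± 18 CPM and MAPKAPK2, a kinase that restrains ZFP36, from 214 ± 13 to 528 ± 21 CPM. From 3 to 6 h 4 of the 11 were higher and 5 lower, where 27.8% and 29.8% of all genes were. MAPKAPK2 fell by 0.71 (SE 0.05), ZC3H12A, an RNase that cleaves cytokine mRNAs, by 1.17 (SE 0.10) and ZFP36 by 0.85 (SE 0.12). HNRNPD rose by 0.48 (SE 0.07), TIA1 by 0.34 (SE 0.08), TIAL1 by 0.28 (SE 0.06) and ELAVL1 by 0.26 (SE 0.05). The rises of TIA1 and TIAL1 followed a fall. Mean TPM at 0, 3 and 6 h was 49.8, 18.2 and 24.4 for TIA1 and 71.5, 38.4 and 49.8 for TIAL1. With palbociclib at 24 h 1 was called higher and 4 lower, where 5.76% of all genes were higher and 12.3% lower. The lower ones were KHSRP (-0.50, SE 0.07) and HNRNPD (-0.46, SE 0.08), which promote decay of such mRNAs, ELAVL1 (-0.29, SE 0.06), which stabilises them, and TIAL1 (-0.19, SE 0.07), a repressor of their translation, and the higher one was DUSP1 (0.42, SE 0.15). TIAL1 and DUSP1 did not pass without the 5 libraries (-0.17, adjusted p = 0.39, and 0.41, adjusted p = 0.31).

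Across the 11 group means of log2 CPM, the members formed no single pattern. CXCL2 and CXCL3 were alike (Pearson's r = 0.92), as were CXCL8 and CSF3 (r = 0.98) and CXCL1 and CXCL8 (r = 0.96), while CXCL8 and CXCL2 were not (r = 0.17). IL1A and IL1B had r = 0.84. Among 11042 other genes the closest to CXCL2 was OSMR (r = 0.986), to LIF GRAMD3 (r = 0.988), to CXCL3 ELL2 (r = 0.989) and to CCL20 SERPINB8 (r = 0.990). For CXCL1 it was CAPN2 (r = 0.996), for CXCL8 TIMM23 (r = 0.997) and for CSF3 COTL1 (r = 0.997). IL1A and IL1B had weaker neighbours, NBPF20 (r = 0.894) and CCNT2 (r = 0.930). These are descriptions over 11 means that share libraries and depth, with no test.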

How the data were processed

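The members and all gene lists were chosen with earlier results of these data known. The deposited values are raw counts per gene name, made by the authors with featureCounts 1.5.1, per the file headers, from GENCODE 25 exons; the recorded command sets neither strand nor multi-mapping, so reads of either strand counted and multi-mapping reads were left out by default. FastQC 0.11.3, TopHat2 2.1.1 with Bowtie2 2.2.9 and Subread 1.5.1 are named in the submitters' processing notes, with the GRCh38.p7 genome, whose chromosome coordinates are those of GRCh38. The kit marked strand, per the labels' protocols, but reads were counted without it.

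The counts were tested with edgeR 4.0.16 in R 4.3.3: filterByExpr by group (15787 genes of 34335 with a count), TMM factors of 0.927 to 1.082, and a single quasi-likelihood model over the 11 groups of 31 libraries (20 residual df). The 17 contrasts were each adjusted by Benjamini-Hochberg over all tested genes and called at an adjusted p below 0.05. Every adjusted p is from this test unless another is named. Each SE was derived from the log2 fold change and its F statistic. CPM values use TMM factors, and TPM values use the deposited exon lengths. Levels are mean ± SD. Group and replicate came from the labels.

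The test was first tested on simulated data. Named genes were the 9 members, for each other list up to 4 genes per direction with the smallest p among those called, and for likeness the closest gene above a floor in abundance (mean log2 CPM 1, prior count 2). Genes of the lists named for scarcity (CXCR2, CCR6, IL6, TNF, CCL2, PTPRC) were chosen after their values were seen. Alternatives were other scalings, no filter, DESeq2 1.42.0, a replicate block, the contrast's own libraries, leaving out the 5 libraries, and leaving out each library. The series-wide table was not used, since 28 of its gene names had become dates.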

Additional observations from a re-analysis of the deposited data

Results flagged for a closer look

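The effect of palbociclib on IL1A was larger at 24 h than at 15 h with all libraries: the interaction had a log2 value of 0.50 (SE 0.12, adjusted p = 0.018 by edgeR's quasi-likelihood test). With the drug IL1A was at 98.5 ± 8.0 CPM at 15 h and 90.5 ± 0.25 CPM at 24 h, and with DMSO at 79.9 ± 5.9 and 51.5 ± 7.2 CPM (SD, n = 3 at 15 h and 2 at 24 h). The call was lost without the 5 libraries (0.64, adjusted p = 0.055) and without any 1 of 4 single libraries, with the lowest value, 0.34 (adjusted p = 0.29), without DMSO 24 h replicate 1.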

How the results depend on the processing

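Across 1962 recomputed member values no called value changed sign, and 71 values that passed in neither setting did. The counts of members called at 3, 6 and 15 h against 0 h, and from 3 to 6 h, were the same in every refit without 1 library. Leaving out 1 library gave 0 to 1 members for palbociclib at 15 h (main 1), 2 to 4 at 24 h (main 2), 0 to 1 for the 15 to 24 h change of its effect (main 1), 3 to 5 for DMSO 24 against 15 h (main 5), 3 to 5 for 9 against 6 h (main 5) and 4 to 8 for 24 against 0 h (main 6). Of 433 such refits of called members, 26 lost the call. Without the 5 libraries the 15 to 24 h change had 0 members. With no filter, 1 member was called for DMSO 15 against 12 h and 1 for palbociclib at 12 h, and with only the comparison's own libraries 1, 1 and, for palbociclib at 15 h, 2. The cause was not tested.

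With the replicate number as a block (replicate block), 1 member was called for palbociclib at 12 h and 2 at 15 h, and no member lost its call. The numbers did not pair the libraries by the rule used. None of the 12 contrasts with 3 pairs had a correlation above 0.1 in every pair. In palbociclib against DMSO at 24 h the correlation was 0.30. With 2 libraries in each of these groups, both pairs must give the same value, so it is a single value. Of the 12 contrasts with 3 pairs, every library matched its own number best in 3 (DMSO 3, 9 and 15 h against 0 h). When library totals replaced TMM, the all-gene median at 3 h against 0 h went from -0.103 to -0.271, the 9 members stayed higher, and IL1A passed from 3 to 6 h (0.22, adjusted p = 0.013). The groups at 24 h had 2 libraries, and CCL20, CSF3, CXCL3 and CXCL8 had 5 to 27 counts in a library at 0 h. At 24 h against 0 h the SE was largest for CXCL3 (0.33), CCL20 (0.30) and CXCL2 (0.25).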
